A study of Mus musculus with 6 samples.

Results

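Wnt signaling was examined through 60 genes that encode Wnt ligands, their receptors and co-receptors, secreted inhibitors, and the intracellular and nuclear factors that carry or dampen the signal. The genes were taken by name from the pathway, and all 60 were found among the 55421 genes of the count table. They are a part of the pathway and were chosen with earlier results of these data known. The cells were C2C12, a mouse myoblast line that stops dividing and fuses into multinucleated myotubes in low serum. They had been stably transfected with a GFP plasmid whose 3′ untranslated region carried 5 CTG repeats (CUG5, the normal group) or 200 CTG repeats (CUG200, the DM1 group), as a model of myotonic dystrophy type 1 (DM1), in which an expanded repeat is transcribed into CUG-repeat RNA. Both groups therefore carried the transfected GFP plasmid and had been through G418 selection, and both were taken at differentiation day 4 in low-serum medium with insulin. RNA-seq was available from 3 libraries per group. The methods do not say whether the 3 libraries of a group came from separate transfections or from 1 selected culture, so a p-value measures the spread between these libraries only, and the transgene itself was not analysed here.

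In the canonical branch, a Wnt ligand bridges a Frizzled receptor and the co-receptor *Lrp5* or *Lrp6*, Dishevelled is recruited, and the complex of Axin, *Apc*, and *Gsk3b* that marks beta-catenin for destruction is inhibited. Beta-catenin then enters the nucleus and activates genes together with TCF/LEF factors, among them *Axin2* and other genes that dampen the signal. Other branches act through Ror and *Ryk* receptors on cell polarity and on calcium-regulated factors. In muscle, Wnt signaling is known to take part in embryonic myogenesis, in the differentiation of myoblasts, and in the choice between myogenic and fibrogenic fates.

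The libraries held 61707889 to 80957325 counts, a count being 75 aligned bases and not a read. Mitochondrial genes took 8.90% to 13.5% of the counts, and no library was left out. Of the 10 myoblast and myotube markers, all were detected in every library, 8 passed the test as lower in DM1 and 0 as higher (beside 8.73% and 7.13% of all tested genes), and their summed level was 8695 to 10220 TPM (transcript abundance scaled for length and library size) in the normal libraries and 4488 to 6680 TPM in the DM1 libraries. Of the 6 fibroblast markers, 5 could be tested and 3 were higher in DM1 (*Col1a1*, *Dcn*, and *Lum*), with a summed level of 1500 to 1771 TPM in the normal and 1749 to 2115 TPM in the DM1 libraries, while *Thy1* was at 0 in 5 of the 6 libraries. The 6 markers of undifferentiated myoblasts summed to 169 to 196 TPM in the normal and 173 to 199.5 TPM in the DM1 libraries, and the 6 cell cycle genes summed to 281 to 328 TPM and 282 to 307 TPM. Within the first of these lists *Cd34* was higher in DM1 (47.5 ± 6.75 and 87.0 ± 7.24 TPM) and *Sdc4* lower, and within the second *Mcm2* was lower, with the other members not called. The leukocyte markers *Ptprc* and *Adgre1* and the adipocyte markers *Adipoq*, *Cidec*, and *Fabp4* were at 0 in every library, while *Cd68* had 174 to 323, *Csf1r* 6 to 45, and *Pparg* 543 to 707 counts a library, with no call. Of the endothelial markers, *Tek* was lower in DM1 (569 to 698 counts in the normal and 280 to 375 in the DM1 group), *Pecam1* had at most 26 counts, and *Cdh5*, *Kdr*, and *Emcn* were at 0 in DM1 and at most 9 counts in the normal group. The part of these markers in the results below was not tested, and in bulk RNA fewer cells of a type and less RNA per cell cannot be told apart.

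Of the 60 genes, 44 passed a minimum on counts and were tested with all 19005 such genes by edgeR's quasi-likelihood test. At an adjusted p (Benjamini-Hochberg) under 0.05, 6 of the 44 were higher in DM1 (13.6%), 7 were lower (15.9%), and 31 had no call. Among all tested genes 7.13% were called higher and 8.73% lower. The 60 genes were chosen with earlier results of these data known. The difference between these shares was not tested and is not a property of the pathway as a whole. The genes higher in DM1 were the ligand *Wnt10a*, the secreted inhibitors *Sfrp2* and *Dkk3*, the feedback genes *Nkd2* and *Axin2*, and the calcium-regulated factor *Nfatc4*. The genes lower in DM1 were the ligand *Wnt4*, the receptors *Fzd3* and *Fzd4*, the co-receptor *Lrp6*, the R-spondin receptor *Lgr4*, beta-catenin itself (*Ctnnb1*), and the polarity gene *Prickle1*. With the added requirement of a log2 fold change over 1 in size, 6 were higher and 2 were lower (*Fzd3* and *Prickle1*), beside 1.36% and 0.816% of all tested genes. With 1 library left out, 5 to 8 members were higher and 4 to 10 lower (4 without DM1 replicate 2, normal replicate 1, or normal replicate 3), and 1 was lower past both limits without DM1 replicate 3 or normal replicate 3. The median log2 fold change was -0.17 over the 44 genes and 0.015 over all tested genes. The 3 libraries of one group lay wholly above those of the other in CPM (counts scaled to the library size with TMM factors) for 9 genes higher and 12 lower in DM1, which was so for 17.9% and 19.3% of all tested genes.

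**Figure D1:**
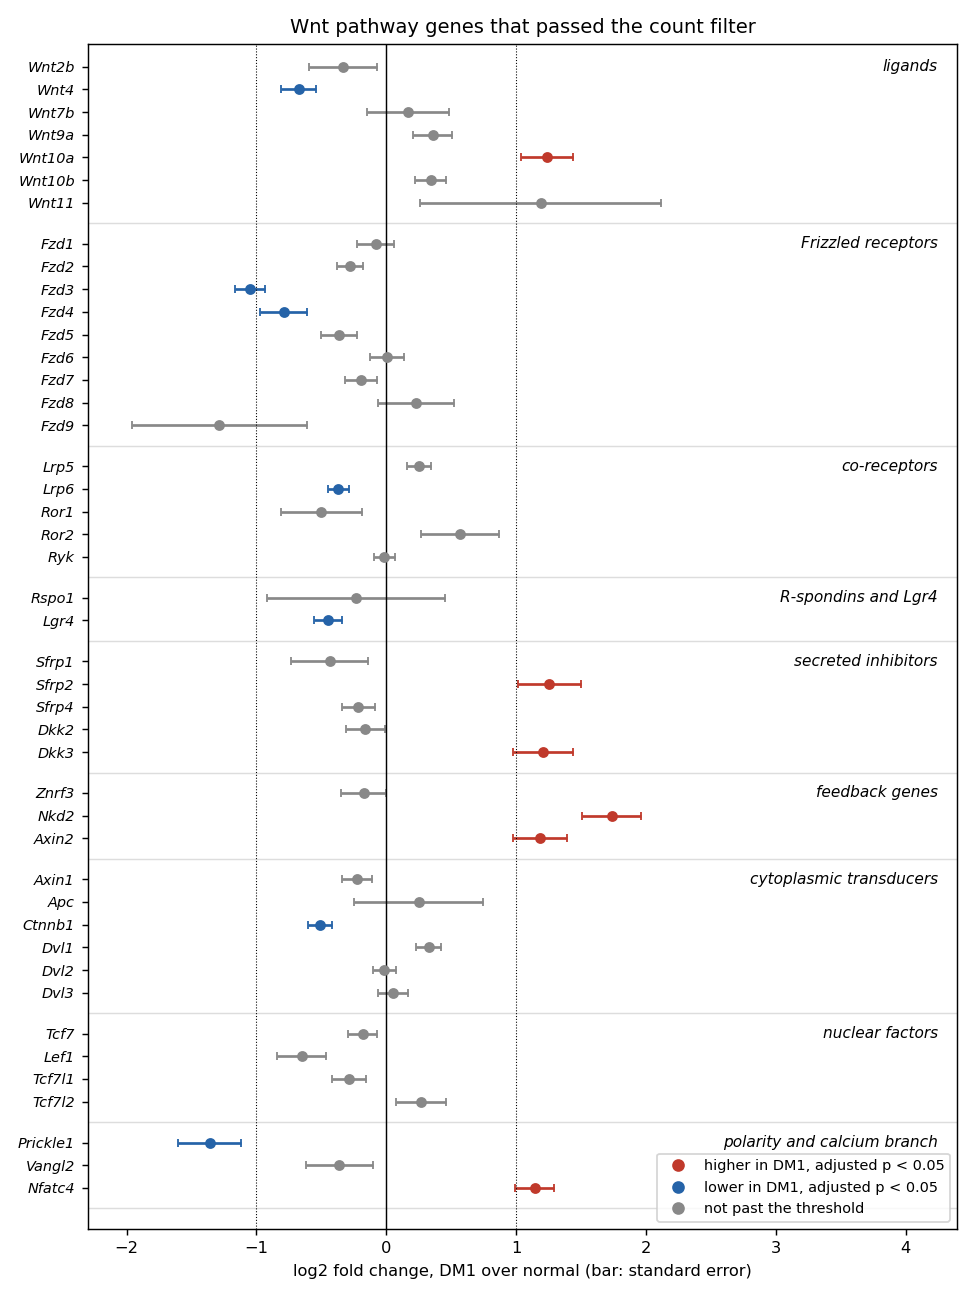
Log2 fold change (DM1 over normal, with its standard error) of the 44 Wnt pathway genes that passed the count minimum, ordered by role. Red marks the 6 genes higher and blue the 7 genes lower in DM1 at an adjusted p under 0.05, grey the 31 with no call, and dotted lines a log2 fold change of 1 in either direction.

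Of the 14 ligands, 7 could be tested, of which 1 rose and 1 fell, beside 7.13% and 8.73% of all tested genes. *Wnt10a*, a canonical ligand, lies at chr1:74791516-74804179 (GRCm38, plus strand). Its counts were 236, 129, and 180 in normal and 536, 344, and 374 in DM1 libraries. Every DM1 library was above every normal library. The level was 2.50 ± 0.360 CPM in the normal and 5.89 ± 1.21 CPM in the DM1 group (SD, n = 3 each), for a log2 fold change of 1.24 with a standard error of 0.200 (edgeR adjusted p = 0.00642), and the call held in all 16 alternative settings. Its neighbour *Wnt6*, which lies 6193 bases away on chromosome 1, had 16, 0, and 13 counts in the normal and 6, 0, and 0 in DM1, too few for a test.

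*Wnt4*, a ligand that is known from kidney and reproductive tract development and also acts in muscle, lies at chr4:137277489-137299726 on the plus strand. The normal libraries gave 821, 635, and 801 counts of it, and the DM1 libraries gave 432, 479, and 481, and the groups did not overlap. Its level fell from 10.5 ± 0.864 to 6.59 ± 0.721 CPM, for a log2 fold change of -0.68 with a standard error of 0.136 (edgeR adjusted p = 0.0136). Without DM1 replicate 2 the adjusted p was 0.0532 and without normal replicate 3 it was 0.0696, and limma on TPM gave 0.0525 and 0.0553 with pseudocounts of 1 and 0.1.

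On the scale of TPM, which takes transcript length into account and allows genes to be set side by side, *Wnt10b* was the highest ligand in every library. Its 16.3, 13.7, and 14.4 TPM in the normal and 12.3, 18.3, and 19.7 TPM in the DM1 libraries made up 49.0% ± 2.27 and 49.5% ± 4.36 of the summed ligand level. *Wnt9a* came next in every library. The ratio of *Wnt10b* to *Wnt9a* in TPM was 2.30, 1.76, and 2.22 in the normal libraries. It was 1.91, 2.30, and 1.77 in the DM1 libraries, so the groups overlapped. The order of the following pair differed between the groups. *Wnt4* took 13.9% ± 0.832 of the ligand level in the normal group and 7.24% ± 0.0770 in DM1, and *Wnt10a* took 5.61% ± 0.797 and 11.3% ± 3.63. The ratio of *Wnt10a* to *Wnt4* in TPM was 0.488, 0.345, and 0.382 in the normal libraries and 2.11, 1.22, and 1.32 in the DM1 libraries, so that *Wnt4* was above *Wnt10a* in each normal library and below it in each DM1 library. The shift of this ratio follows from the calls of both genes above and is not a separate result. The summed ligand level was 29.1 to 31.7 TPM in the normal and 26.7 to 40.8 TPM in the DM1 libraries, which overlapped.

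**Figure D2:**
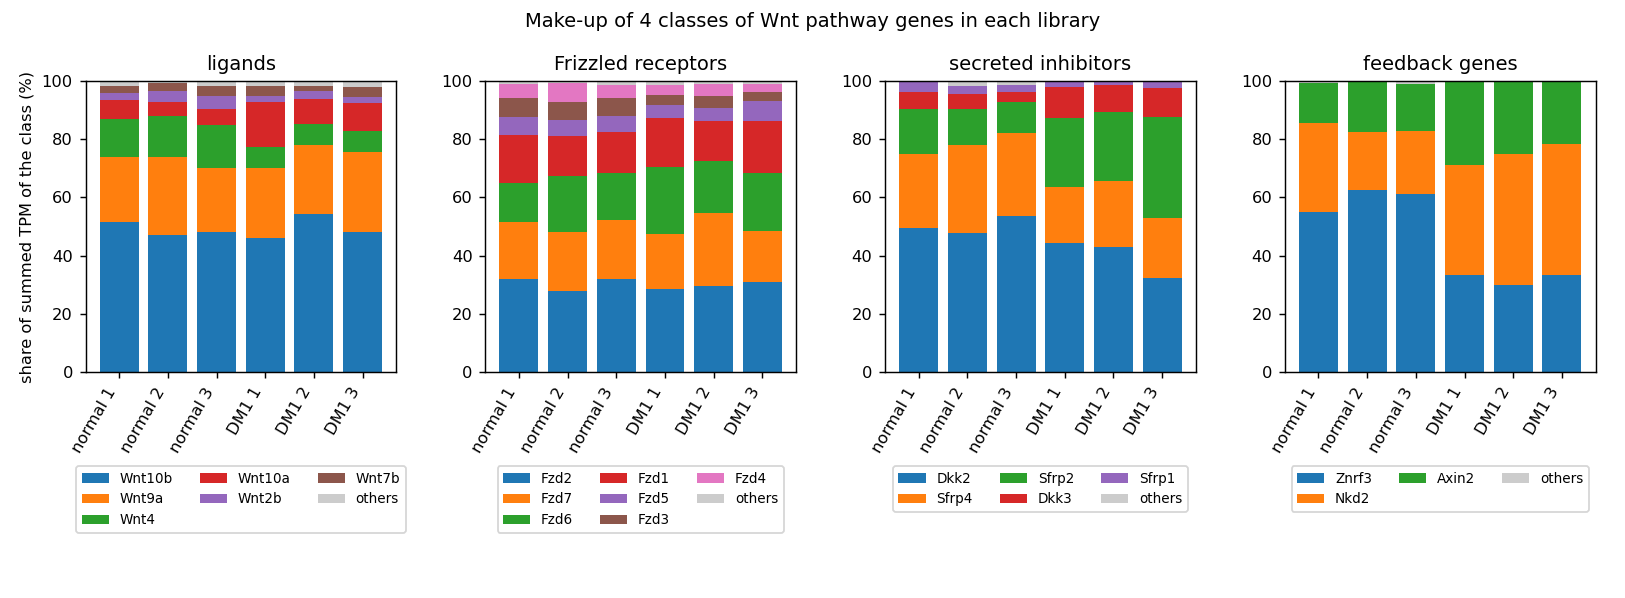
Share (%) of each gene in the summed TPM of its class, in each of the 3 normal and 3 DM1 libraries, for ligands, Frizzled receptors, secreted inhibitors, and feedback genes; genes that stayed under 3% are joined as others. The shares of *Wnt10a*, *Sfrp2*, *Dkk3*, *Nkd2*, and *Axin2* were larger, and those of *Wnt4*, *Fzd3*, *Fzd4*, *Dkk2*, *Sfrp4*, and *Znrf3* smaller, in every DM1 library than in any normal library. Shares in a class are tied, so a rise of some genes lowers the shares of the others. *Dkk2*, *Sfrp4*, and *Znrf3* had no call, and the levels of *Dkk2* and *Znrf3* overlapped between the groups.

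The other 5 ligands that could be tested had no call. Their log2 fold changes were 0.34 for *Wnt10b*, 0.36 for *Wnt9a*, 0.17 for *Wnt7b*, -0.34 for *Wnt2b*, and 1.19 for *Wnt11*. The last had a standard error of 0.929, on 32, 0, and 18 counts in the normal and 20, 34, and 50 in the DM1 libraries, which overlapped. With 1 library left out, the log2 fold change of *Wnt11* ranged from 0.634 (without normal replicate 2) to 1.907 (without normal replicate 1). *Wnt10b* passed in 1 setting, without DM1 replicate 1 (log2 fold change 0.46, edgeR adjusted p = 0.0243). Of the 7 ligands under the count minimum, *Wnt7a* was at 0 in every library. *Wnt5b* had 5, 14, and 9 counts (normal) against 12, 5, and 0 (DM1). *Wnt2*, *Wnt3*, *Wnt5a*, and *Wnt16* had at most 8 counts in any library.

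Among the 10 Frizzled receptors, which bind Wnt through an extracellular cysteine-rich domain, 0 rose by edgeR's test or by DESeq2 and 2 fell, and 4 of the 9 tested had an unadjusted p under 0.05 in that test, all of them lower in DM1, beside 16% of all tested genes lower at that limit. *Fzd3*, known from axon guidance and planar cell polarity, lies at chr14:65192449-65262463 on the minus strand. Its counts were 2018, 1479, and 1842 in normal and 867, 957, and 724 in DM1 libraries. The lowest normal library was above the highest DM1 library. The level fell from 24.8 ± 1.34 to 11.99 ± 1.31 CPM, for a log2 fold change of -1.05 with a standard error of 0.115 (edgeR adjusted p = 0.00198), with the call kept in all 16 alternative settings.

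*Fzd4*, a receptor for several Wnt ligands and for norrin in retinal vessels, lies at chr7:89404355-89413134 on the plus strand. The normal libraries gave 830, 768, and 645 counts of it, and the DM1 libraries gave 468, 505, and 325, again without overlap. Its level was 10.5 ± 1.74 CPM in the normal and 6.09 ± 1.12 CPM in the DM1 group, for a log2 fold change of -0.79 with a standard error of 0.179 (edgeR adjusted p = 0.0209). Without normal replicate 1 the adjusted p was 0.0566 and without normal replicate 2 it was 0.0761, and limma on TPM gave 0.0521 and 0.0547 with pseudocounts of 1 and 0.1.

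The 4 most abundant receptors of the family, *Fzd2*, *Fzd7*, *Fzd6*, and *Fzd1*, had no call. *Fzd2*, the highest in each library, had 17.3, 13.8, and 16.6 TPM in the normal and 10.6, 11.4, and 14.3 TPM in the DM1 libraries, which overlapped on this scale. Its log2 fold change was -0.28, beside -0.20 for *Fzd7*, 0.01 for *Fzd6*, and -0.08 for *Fzd1*. The values for *Fzd5*, *Fzd8*, and *Fzd9* were -0.36, 0.23, and -1.29, the last on 4 to 44 counts a library with a standard error of 0.674. *Fzd5* passed only without DM1 replicate 3 (log2 fold change -0.48, edgeR adjusted p = 0.0389), and *Fzd10* was at 0 in every library. The shares of *Fzd3* and *Fzd4* in the summed Frizzled level were 6.32% ± 0.110 and 5.11% ± 0.993 in the normal group and 3.59% ± 0.482 and 3.46% ± 0.714 in DM1. The Frizzled genes summed to 49.3 to 54.1 TPM in the normal and 37.2 to 46.1 TPM in the DM1 libraries, a ratio of 0.785 ± 0.0999, without overlap.

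Of the 5 co-receptors, *Lrp6* fell and the other 4 had no call, beside 8.73% of all tested genes lower. *Lrp6*, which is phosphorylated when a Wnt ligand binds and then holds Axin at the membrane, lies at chr6:134446476-134566965 on the minus strand. It had 5268, 3589, and 4654 counts in normal against 3498, 3467, and 3300 in DM1 libraries. In CPM the groups did not overlap. The level went from 62.6 ± 4.08 to 48.5 ± 1.31 CPM, for a log2 fold change of -0.37 with a standard error of 0.0814 (edgeR adjusted p = 0.0188), and the call was lost without DM1 replicate 2 (0.0745), normal replicate 1 (0.0673), or normal replicate 3 (0.109), and by limma on TPM with either pseudocount (0.114).

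Its paralog *Lrp5* had a log2 fold change of 0.25 (edgeR adjusted p = 0.0989), with its DM1 libraries all above the normal ones in CPM. In TPM the groups overlapped, and limma gave adjusted p of 0.727 and 0.728 with pseudocounts of 1 and 0.1. The ratio of *Lrp5* to *Lrp6* in TPM was 1.10, 1.26, and 1.03 in the normal and 1.72, 1.53, and 1.87 in the DM1 libraries, which did not overlap. In CPM *Lrp5* was higher and *Lrp6* lower in every DM1 library, so this ratio is not a separate result. *Ryk*, a receptor with an inactive kinase domain, was by far the highest of the co-receptors, at 81.9, 74.0, and 69.5 TPM in the normal and 65.8, 63.4, and 75.1 TPM in the DM1 libraries. Its log2 fold change was -0.01 with a standard error of 0.0794. The kinases *Ror1* and *Ror2*, receptors for non-canonical ligands, had log2 fold changes of -0.50 and 0.57 with no call, and *Ror1* passed only without DM1 replicate 3 (-0.93, edgeR adjusted p = 0.0329).

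R-spondins strengthen Wnt signaling by binding *Lgr4* and removing the ligases *Znrf3* and *Rnf43* from the membrane. *Lgr4*, at chr2:109917647-110014257 on the plus strand, had 1607, 1047, and 1231 counts (normal) against 951, 1014, and 828 (DM1). In CPM the groups did not overlap, at 17.9 ± 1.07 and 13.2 ± 0.946. The log2 fold change was -0.45 (standard error 0.109, edgeR adjusted p = 0.0272), and this call held in only 1 of 6 fits on 5 libraries, with adjusted p of 0.0543 to 0.0973 without DM1 replicates 1 or 2 or any 1 normal replicate, and it was lost by limma on TPM (0.0927 and 0.0947 with pseudocounts of 1 and 0.1). The ligands were scarce. *Rspo1* had 9, 9, and 28 counts in the normal and 13, 10, and 16 counts in the DM1 libraries (log2 fold change -0.23, standard error 0.689), *Rspo2* had 8, 4, and 8 counts and 12, 16, and 5 counts, and *Rspo3* was at 0 throughout.

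Among the 9 secreted inhibitors, 2 rose and 0 fell by edgeR's test or by DESeq2, and *Sfrp2* and *Dkk3* were also the only ones of the 5 tested with an unadjusted p under 0.05, which 14.7% of all tested genes had in that direction. *Sfrp2* binds Wnt proteins through a Frizzled-like domain and lies at chr3:83766321-83774316 on the plus strand. The normal libraries gave 311, 151, and 165 counts of it, and the DM1 libraries gave 452, 397, and 583. All 3 DM1 libraries were above the highest normal library. The level was 2.84 ± 0.746 CPM in the normal and 6.81 ± 1.72 CPM in the DM1 group, for a log2 fold change of 1.26 with a standard error of 0.241 (edgeR adjusted p = 0.0116), and the adjusted p was 0.0529 without normal replicate 3 and 0.0518 by limma on log2(TPM + 1).

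*Dkk3*, a Dickkopf family member whose action on Wnt is less settled than that of its relatives, lies at chr7:112116017-112159057 on the minus strand. It had 199, 101, and 97 counts in normal against 343, 258, and 283 in DM1 libraries, with no overlap. The level rose from 1.80 ± 0.508 to 4.16 ± 0.502 CPM, for a log2 fold change of 1.21 with a standard error of 0.232 (edgeR adjusted p = 0.0117). The call held with any 1 library left out and was lost on the TPM scale, where limma gave an adjusted p of 0.0573 with a pseudocount of 1 and 0.0637 with a pseudocount of 0.1.

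*Dkk2*, which binds *Lrp5* and *Lrp6*, was the highest inhibitor in every library except DM1 replicate 3, where *Sfrp2* was higher. Its level was 10.7, 7.72, and 9.69 TPM in the normal and 7.98, 7.77, and 7.05 TPM in the DM1 libraries, and the log2 fold change in counts was -0.16. *Sfrp4* and *Sfrp1* had log2 fold changes of -0.21 and -0.44 with no call. The ratio of *Sfrp2* to *Sfrp4* in TPM was 0.606, 0.412, and 0.363 in the normal and 1.25, 1.05, and 1.66 in the DM1 libraries, so the order of these relatives differed between every normal and every DM1 library. In TPM *Sfrp2* was higher and *Sfrp4* lower in every DM1 library, so this ratio is not a separate result. Together the inhibitors summed to 16.1 to 21.5 TPM in the normal and 18.0 to 21.8 TPM in the DM1 libraries, which overlapped, and *Sfrp2* made up 12.8% ± 2.45 of that sum in the normal and 27.4% ± 6.21 in the DM1 group.

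*Wif1*, an inhibitor that binds Wnt ligands directly, had 9, 17, and 8 counts in normal libraries and 0 in every DM1 library. These counts were under the minimum for the test, and 4 counts may be 1 fragment, so no fold is given. *Sfrp5* had 0, 0, and 10 counts in the normal and 0 in all DM1 libraries, *Frzb* had 4 counts in a single normal library, and *Dkk1* was at 0 throughout.

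Of the 5 feedback genes, which are induced by or act back on the pathway, 3 could be tested and 2 of them rose, beside 7.13% of all tested genes. *Nkd2* binds Dishevelled and lies at chr13:73818534-73847631 on the minus strand. Its counts were 306, 208, and 207 in normal and 549, 896, and 889 in DM1 libraries, and the lowest DM1 library was above the highest normal one. The level was 3.33 ± 0.342 CPM in the normal and 11.1 ± 3.25 CPM in the DM1 group, a 3.33-fold difference and the largest log2 fold change among the called members at 1.74 (standard error 0.228, edgeR adjusted p = 0.00316). *Axin2*, a scaffold of the destruction complex and a widely used target of beta-catenin, lies at chr11:108920349-108950783 on the plus strand. The normal libraries gave 184, 187, and 192 counts of it, and the DM1 libraries gave 351, 442, and 479, again with no overlap. The level rose from 2.66 ± 0.435 to 6.04 ± 1.25 CPM, for a log2 fold change of 1.19 with a standard error of 0.207 (edgeR adjusted p = 0.00838). Both calls held in all 16 alternative settings, and the gene antisense to *Axin2* (*Gm11670*) had at most 9 counts in any library.

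**Figure D3:**
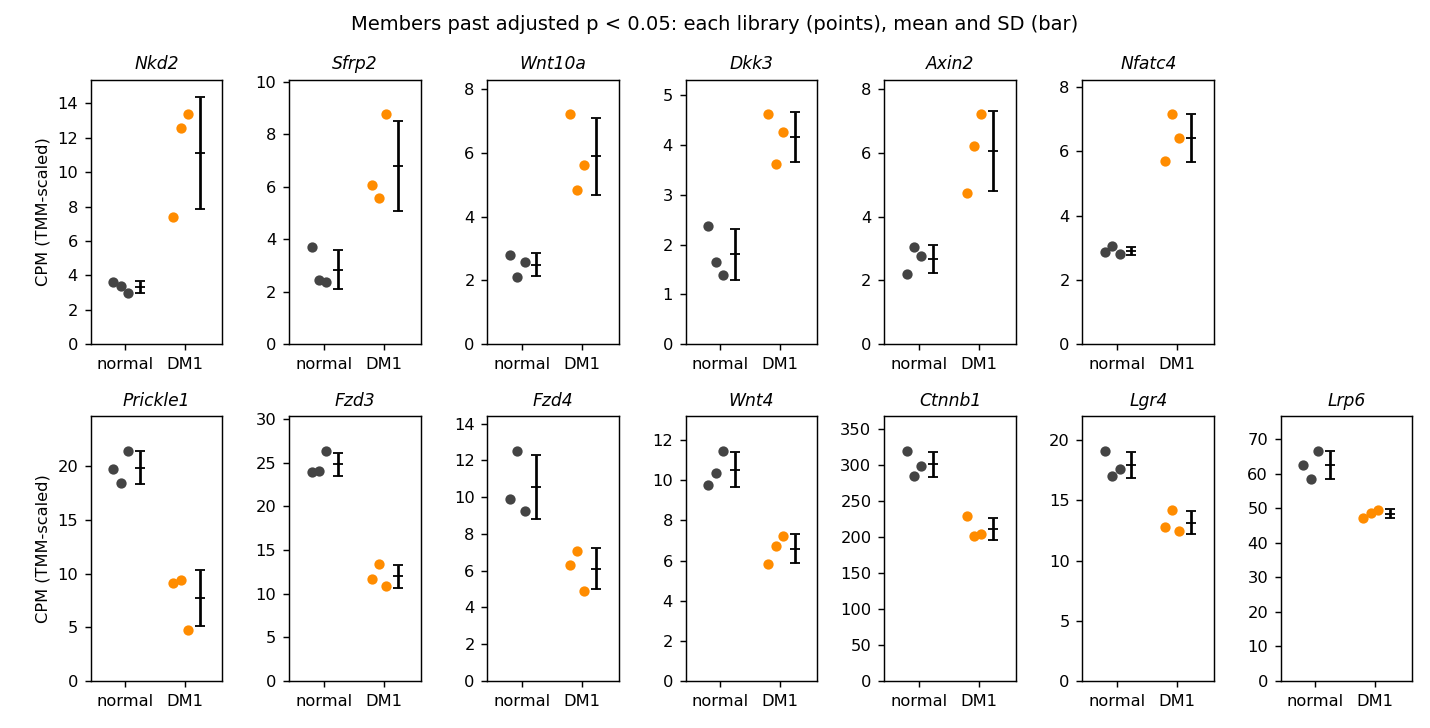
CPM scaled by TMM in each library (points) with the group mean and SD (bar, n = 3) for the 6 genes higher (upper row) and the 7 genes lower in DM1 (lower row), on linear axes that start at 0. In each of the 13 panels the 3 DM1 libraries lie wholly on one side of the 3 normal libraries. The genes were picked by the test on these same libraries, so this separation is not a further result. Of all tested genes, 37.2% did not overlap in CPM.

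The ligase *Znrf3*, which removes Frizzled receptors from the membrane, had 4.20, 5.44, and 4.51 TPM in the normal and 2.93, 3.46, and 4.68 TPM in the DM1 libraries, which overlapped, and a log2 fold change of -0.17 in counts. It made up 59.5% ± 3.96 of the summed level of the feedback genes in the normal and 32.2% ± 1.84 in the DM1 group, while *Nkd2* went from 24.2% ± 5.76 to 42.7% ± 4.24. *Axin2* went from 15.8% ± 1.95 to 24.9% ± 3.53. Set against its constitutive paralog *Axin1*, *Axin2* stood at 0.0588, 0.0859, and 0.0828 in TPM in the normal and 0.233, 0.222, and 0.193 in the DM1 libraries. The counts of *Nkd1*, the relative of *Nkd2*, were 4, 0, and 12 in the normal and 0, 4, and 0 in the DM1 libraries. *Rnf43* had at most 8 counts in any library.

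Since *Nkd2* and *Axin2* rose together, the 250 bases upstream of their starts are shown, as RefSeq gives them for GRCm38.p6, 5′ to 3′ on the strand of the gene, with CG pairs in capitals. The first is chr11:108920099-108920348 on the plus strand with 24 CG pairs, and the second is chr13:73847632-73847881 on the minus strand with 14 CG pairs.
Axin2 upstream: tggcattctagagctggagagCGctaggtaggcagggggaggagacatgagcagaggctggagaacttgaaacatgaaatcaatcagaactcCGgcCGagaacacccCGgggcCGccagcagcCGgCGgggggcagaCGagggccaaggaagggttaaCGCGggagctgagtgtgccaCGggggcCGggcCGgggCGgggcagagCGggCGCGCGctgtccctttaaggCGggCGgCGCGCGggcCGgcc
Nkd2 upstream: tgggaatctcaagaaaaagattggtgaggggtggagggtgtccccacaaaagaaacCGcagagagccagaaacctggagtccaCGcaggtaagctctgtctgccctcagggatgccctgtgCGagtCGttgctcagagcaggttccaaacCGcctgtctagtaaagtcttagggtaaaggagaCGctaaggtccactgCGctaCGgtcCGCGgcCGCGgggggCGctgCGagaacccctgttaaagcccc

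RefSeq promoters of 300 bases (250 before to 50 after the start) were at hand for 43 of the 60 genes, 54 promoters in all. They held a median of 24 CG pairs and 66.5% G and C, beside 7 CG pairs and 52.7% over all 32851 promoters. The core letters bound by TCF/LEF factors, CTTTGAT, read on both strands, were found in 2 of the 54 promoters (3.70%) and in 3.73% of all promoters. They were absent from the promoters of *Axin2* and *Nkd2* and present in 1 promoter each of the ligands *Wnt5b* and *Wnt11*. Of the 2 promoters of *Wnt11*, the other did not hold them. In the one that did, they lay on the minus strand, in capitals in chr7:98834862-98835111 on the plus strand, the upstream 250 bases, where they began 51 bases before the start. A match is only a match of letters, and its absence says only that these letters were not in this window.
Wnt11 upstream: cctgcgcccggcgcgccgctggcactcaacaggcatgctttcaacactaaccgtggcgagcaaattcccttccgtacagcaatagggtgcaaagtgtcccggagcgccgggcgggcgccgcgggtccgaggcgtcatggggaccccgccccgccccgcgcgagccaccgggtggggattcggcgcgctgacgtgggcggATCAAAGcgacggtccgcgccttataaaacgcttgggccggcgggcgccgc

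Of the 6 cytoplasmic transducers, beta-catenin fell and 5 had no call, beside 8.73% of all tested genes lower. *Ctnnb1*, at chr9:120929216-120960507 on the plus strand, was the most abundant of the 60 genes in every library. It had 26895, 17497, and 20850 counts in normal against 17038, 14335, and 13556 in DM1 libraries, which did not overlap in CPM. The level fell from 301 ± 17.6 to 211 ± 15.4 CPM, for a log2 fold change of -0.51 with a standard error of 0.0900 (edgeR adjusted p = 0.00868), and from 172, 140, and 141 TPM to 101, 126, and 122 TPM. The call held with any 1 library left out and was lost with limma on TPM, where the adjusted p was 0.121 and 0.119 with the pseudocounts of 1 and 0.1. *Ulk4*, which shares exonic bases on the opposite strand, had 174 to 319 counts a library, and RNA abundance says nothing here of the protein, on which the pathway acts.

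The Dishevelled genes *Dvl1*, *Dvl2*, and *Dvl3*, which relay the signal from Frizzled, had log2 fold changes of 0.33, -0.01, and 0.05. *Dvl1* was just short of the threshold (edgeR adjusted p = 0.0519), with all DM1 libraries above the normal ones in CPM, and passed in 4 of the alternative settings, DESeq2 among them (0.0306). *Dvl2* shares exonic bases with the antisense gene *Acadvl*, which had 4069 to 6227 counts beside the 1427 to 1879 counts of *Dvl2*, so its value is uncertain if the counting did not use strand. *Axin1* had a log2 fold change of -0.23 with no call.

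*Apc*, the large scaffold of the destruction complex, gave values that depended on the unit. Its counts were 4325, 2351, and 2552 in normal and 2205, 6348, and 2102 in DM1 libraries, with DM1 replicate 2 above the other 5. In TPM it had 25.0, 21.4, and 21.4 in the normal and 13.6, 17.9, and 18.6 in the DM1 libraries, and on this scale every DM1 library was below every normal one. The log2 fold change was 0.25 (standard error 0.496) in counts, -0.46 without DM1 replicate 2, and -0.42 by limma on log2(TPM + 1), with no call in any of these fits (adjusted p of 0.792, 0.137, and 0.120).

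None of the 4 nuclear factors, which bind DNA and recruit beta-catenin, passed edgeR's test, and 1 of them (*Lef1*) had an unadjusted p under 0.05 and was lower, beside 16% of all tested genes. *Lef1* was nearest, with 473, 452, and 511 counts in the normal and 276, 273, and 357 in the DM1 libraries and no overlap in CPM. Its level was 6.77 ± 0.988 and 4.30 ± 0.924 CPM, for a log2 fold change of -0.65 with a standard error of 0.192 (edgeR adjusted p = 0.0511), and it passed in 6 alternative settings, including DESeq2 (0.0204). Its antisense partner *Gm43352* had 0 to 87 counts a library. *Tcf7*, the highest of the 4, had 13.2, 13.9, and 13.9 TPM in the normal and 8.98, 10.3, and 13.9 TPM in the DM1 libraries, and the log2 fold change in counts was -0.18. *Tcf7l1*, mainly a repressor, and *Tcf7l2* had log2 fold changes of -0.29 and 0.27. The ratio of *Tcf7l2* to *Lef1* in TPM was 2.26, 1.48, and 1.80 in the normal and 2.43, 3.59, and 3.62 in the DM1 libraries, which did not overlap. The groups were already apart in *Lef1*, so this ratio is not a separate result.

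Of the 3 genes of the polarity and calcium branches, 1 fell and 1 rose, beside 8.73% and 7.13% of all tested genes, and 1 had no call. *Prickle1*, a cytoplasmic component of planar cell polarity, lies at chr15:93499114-93595891 on the minus strand. The normal libraries gave 1662, 1132, and 1497 counts of it, and the DM1 libraries gave 675, 673, and 314, and DM1 replicate 3 was the lowest. The level fell from 19.9 ± 1.50 to 7.75 ± 2.63 CPM, for a log2 fold change of -1.36 with a standard error of 0.244 (edgeR adjusted p = 0.0104), with the call kept in all 16 alternative settings.

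*Nfatc4*, a transcription factor that calcineurin moves into the nucleus, lies at chr14:55823144-55833943 on the plus strand. It had 241, 187, and 196 counts in normal against 423, 510, and 426 in DM1 libraries, with no overlap. The level rose from 2.91 ± 0.125 to 6.42 ± 0.735 CPM, for a log2 fold change of 1.14 with a standard error of 0.151 (edgeR adjusted p = 0.00320). On the TPM scale limma gave an adjusted p of 0.0673 and 0.0626 with the pseudocounts of 1 and 0.1. *Vangl2*, a membrane protein of planar cell polarity, had a log2 fold change of -0.36 with no call.

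**Figure D4:**
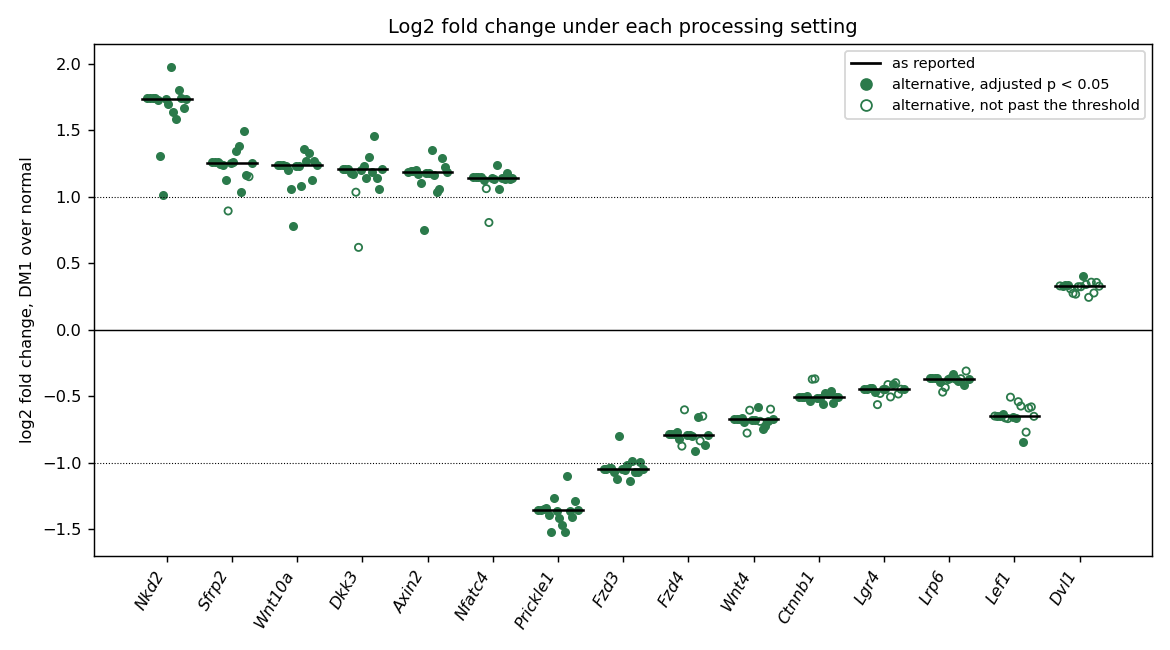
Log2 fold change (DM1 over normal) of the 13 called genes and of *Lef1* and *Dvl1*, as reported (black line) and under each of the 16 alternative settings (dots, filled where the adjusted p was under 0.05). *Wnt10a*, *Nkd2*, *Axin2*, *Fzd3*, and *Prickle1* were past the threshold in every setting, and none of the 15 genes changed sign.

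By class, the summed TPM in DM1 relative to normal was 1.12 ± 0.238 for the ligands, 0.911 ± 0.127 for the co-receptors, 0.696 ± 0.0998 for the R-spondins and *Lgr4*, 1.04 ± 0.193 for the inhibitors, and 1.45 ± 0.357 for the feedback genes. The ratio was 0.878 ± 0.155 for the cytoplasmic transducers, 0.834 ± 0.228 for the nuclear factors, and 0.709 ± 0.160 for the polarity and calcium genes. Libraries did not overlap between the groups for the Frizzled genes, for the R-spondins and *Lgr4*, for the feedback genes, and for the polarity and calcium genes. Of single tested genes 37.2% did not overlap in CPM, and no such share was computed for sums. *Lgr4* alone made up 88.8% to 98.0% of its class. The feedback genes were parted narrowly, by 8.72 TPM in normal replicate 2 and 8.82 TPM in DM1 replicate 1. The TPM scale itself shifted between libraries. Over 12567 genes with at least 100 counts in every library, the median of TPM relative to CPM, on the log2 scale and centred on each gene, was -0.19 in DM1 replicate 1 and 0.15 in normal replicate 1, with the other 4 libraries between them.

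Other genes of the pathway were looked at through a list of 74, which does not overlap the 60. Of the 57 that could be tested, 3 were higher in DM1 (*Lgr5*, *Trabd2b*, and *Nfatc1*), 7 were lower (*Gsk3b*, *Fbxw11*, *Tle1*, *Ctbp1*, *Daam2*, *Camk2d*, and *Nfatc3*), and 47 had no call, with a median log2 fold change of -0.07. These are 5.26% higher and 12.3% lower, beside 7.13% and 8.73% of all tested genes. *Lgr5*, an R-spondin receptor related to *Lgr4*, had 4, 12, and 25 counts (normal) against 95, 93, and 207 (DM1), a log2 fold change of 3.26 (standard error 0.662, edgeR adjusted p = 0.0162). *Gsk3b*, the kinase that marks beta-catenin for destruction, had 4911, 6479, and 6305 counts (normal) against 2252, 2791, and 3109 (DM1), a log2 fold change of -1.13 (standard error 0.249, edgeR adjusted p = 0.0281). In CPM the groups did not overlap in either gene, while in TPM normal replicate 3 (0.431) was above DM1 replicate 1 (0.393) for *Lgr5*. The call of *Lgr5* was lost without normal replicate 2 (edgeR adjusted p = 0.0716) and by limma on TPM (0.216 and 0.121 with pseudocounts of 1 and 0.1), and its log2 fold change was 4.03 without normal replicate 3. That of *Gsk3b* held in only 1 of 6 fits on 5 libraries, with adjusted p of 0.0543 to 0.098 without any 1 DM1 replicate or without normal replicate 2 or 3, and was lost with the looser filter of 1 count in all (0.0614). With 1 library left out the list had 1 to 3 genes higher (1 without normal replicate 2 or 3) and 2 to 9 lower (2 without DM1 replicate 2, 3 without normal replicate 2 or 3, 4 without DM1 replicate 1 or normal replicate 1). *Porcn* and *Wls*, needed to acylate and to secrete Wnt ligands, had log2 fold changes of 0.18 and 0.23 with no call.

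A list of 30 genes known as targets of the pathway in various tissues held 21 that could be tested, of which 4 were higher in DM1 (*Axin2*, *Lgr5*, *Ccn5*, and *Id2*), 5 were lower (*Cd44*, *Jun*, *Tnfrsf19*, *Sox9*, and *Fst*), and 12 had no call. These are 19.0% higher and 23.8% lower, beside 7.13% and 8.73% of all tested genes, and the median log2 fold change was -0.05. *Axin2*, *Lef1*, *Tcf7*, *Nkd1*, and *Dkk1* are among the 60 genes and *Lgr5* and *Notum* are also on the list of 74, so these counts are not independent of the ones above. *Tnfrsf19* had 64, 45, and 68 counts (normal) against 16, 26, and 25 (DM1), a log2 fold change of -1.37 (standard error 0.374, edgeR adjusted p = 0.0400). This call held only without DM1 replicate 3 among the 6 fits on 5 libraries, the others giving adjusted p of 0.0822 to 0.151, and it was lost by limma on TPM (0.0937 and 0.0823 with pseudocounts of 1 and 0.1). In those 6 fits 1 to 4 targets were higher (1 without normal replicate 2, 2 without DM1 replicate 2 or normal replicate 3) and 1 to 6 lower (1 without DM1 replicate 2, 2 without any 1 normal replicate).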

How the data were processed

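RNA-seq libraries of C2C12 cells at differentiation day 4 were grouped as normal (n = 3) and DM1 (n = 3) by their labels. According to the paper's methods and the submitters' processing notes, reads were trimmed with Trim Galore, aligned to GRCm38 with HISAT2, and quantified with StringTie; versions, read length, and strand setting are not given in the sources used here. The authors deposited counts per gene without normalization and, per library, the coverage (signal), FPKM, and TPM of each gene, which StringTie scales for length and depth. FPKM as deposited by the authors was not used further. Coverage times length divided by 75 gave the deposited count within 1 for 99.45% of 14019 single-transcript genes; the commonest small amount, 300 bases, is 4 counts and may be 1 fragment, so that a library would hold 15426972 to 20239331 fragments.

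Counts were filtered with filterByExpr (minimum count 10; 19005 genes kept), scaled by TMM (factors 0.940 to 1.05), and tested by edgeR with its quasi-likelihood method (robust estimation; no covariates) and Benjamini-Hochberg adjustment over all tested genes. Calls needed an adjusted p under 0.05; the stricter rule also needed a log2 fold change over 1 in size. CPM are TMM-scaled counts. Levels between genes and shares within a class use the deposited TPM, with no test. The pairs of genes set as ratios were picked by hand. No share of non-overlapping ratios over other pairs was computed. Classes, lists, and the 60 genes were chosen with earlier results of these data known. All 60 genes are accounted for by name, with values in every library for called genes, for the most abundant gene of each class, and for untested genes that reached 10 counts, and a few others chosen after their values were seen (*Lef1*, *Apc*, *Rspo1*, and *Wnt11*). Of the 74 other pathway genes and 30 targets, those past both limits are given with values, and *Porcn* and *Wls*, chosen after their values were seen, with log2 fold changes. Libraries of a group differed by more than sampling noise (chi-square per degree of freedom 39.5 to 147), so each was used as 1 replicate. Intervals from counts would cover counting error only.

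The 16 alternatives were DESeq2, DESeq2 size factors or library sizes alone in edgeR, a looser filter (1 count in all), a stricter one (10 counts or more in all libraries), counts divided by 4, non-robust estimation, a replicate block, limma-trend on TPM as log2(TPM + 1) or as log2(TPM + 0.1), and each of 6 libraries left out in turn. The scripts were tested on simulated data. Gene positions are those of GENCODE M21 (GRCm38), which gave the same span as the deposited tables for 59 of the 60 genes. Exonic bases were shared with an antisense gene by 13 of the genes and with a microRNA gene of the same strand by 2 (*Ctnnb1* and *Dvl2*, at most 3 counts). Protein sequences were not used here. Python 3.11.15 with pandas 2.3.3, numpy 2.4.6, and matplotlib 3.10.9 was used beside R 4.3.3 with limma 3.58.1, DESeq2 1.42.0, and edgeR 4.0.16.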

Additional observations from a re-analysis of the deposited data

How the results depend on the processing

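Over the 16 alternative settings there were 696 values for single members, of which 632 kept direction and call. These include members without a call that stayed without one. Of the 13 called members, *Wnt10a*, *Nkd2*, *Axin2*, *Fzd3*, and *Prickle1* kept the call in all 16 settings. The others kept it in 9 (*Lgr4*), 11 (*Lrp6*), 12 (*Wnt4* and *Fzd4*), or 14 (*Sfrp2*, *Dkk3*, *Ctnnb1*, and *Nfatc4*). Members higher in DM1 numbered 6, and 5 to 8 with 1 library left out. They numbered 3 by limma on log2(TPM + 1), and 1 of them passed both limits there (5 to 6 with 1 library left out). Members lower in DM1 numbered 7, 4 to 10 with 1 library left out (4 without DM1 replicate 2, normal replicate 1, or normal replicate 3), and 2 by limma with either pseudocount. Past both limits they numbered 2, 1 by limma on log2(TPM + 1), and 1 to 2 with 1 library left out (1 without DM1 replicate 3 or normal replicate 3). Of the 74 other pathway genes, 3 were higher, 1 to 3 with 1 library left out (1 without normal replicate 2 or 3), and 0 by limma with either pseudocount, where 2 (pseudocount 1) and 3 (pseudocount 0.1) were higher at an unadjusted p under 0.05, and 4 by DESeq2. The lower ones numbered 7, 3 by limma on log2(TPM + 1), and 2 to 9 with 1 library left out (2 without DM1 replicate 2 and 9 without DM1 replicate 3). Of the targets, 4 were higher, 1 by limma with either pseudocount and 1 to 4 with 1 library left out; 5 were lower, 2 by limma with either pseudocount and 1 to 6 with 1 library left out. The cause of these differences was not tested. On the TPM scales the median log2 fold change of all genes was -0.06 (pseudocount 1) and -0.09 (pseudocount 0.1).

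The replicate numbers gave no clear pairing of the libraries. Same-numbered libraries deviated together with correlations of 0.067, 0.022, and 0.026, and differently numbered ones with -0.072 to 0.045. With 3 libraries per group these values cannot show that no pairing exists. A fit with the replicate block called 6 members higher and 8 lower in DM1, the added one being *Lef1*, whose adjusted p was 0.0410. Under the block the target *Tnfrsf19* was not called (adjusted p = 0.0620).

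In 23 fits of 8 members without a call the sign changed, with no call on either side. Without DM1 replicate 3 the log2 fold change was -0.078 for *Wnt7b*, -0.046 for *Fzd6*, and -0.087 for *Dvl3*. Without DM1 replicate 2 it was 0.043 for *Fzd1*, 0.021 for *Ryk*, and -0.459 for *Apc*, and without DM1 replicate 1 it was -0.003 for *Fzd6* and 0.021 for *Dvl2*. Without normal replicate 1 it was -0.098 for *Fzd6* and 0.006 for *Ryk*, and without normal replicate 3 it was 0.558 for *Rspo1* and 0.010 for *Dvl2*. Library sizes alone gave -0.012 for *Fzd6*. Limma on log2(TPM + 1) gave -0.034 for *Fzd6*, 0.066 for *Rspo1*, -0.424 for *Apc*, 0.264 for *Dvl2*, and -0.068 for *Dvl3*. With the pseudocount of 0.1 these were -0.038, 0.293, -0.445, 0.276, and -0.071. With 1 library left out at a time, the values ranged up to 0.437 for *Wnt7b*, 0.084 for *Fzd6*, 0.534 for *Apc*, and 0.162 for *Dvl3*, and down to -0.181 for *Fzd1*, -0.042 for *Ryk*, -0.567 for *Rspo1*, and -0.045 for *Dvl2*. The summed levels of the 9 classes have no fit; in TMM-scaled CPM and with each library left out, their ratios moved by less than their spread. Low counts limit the 16 untested members, and *Wnt11*, *Fzd9*, and *Rspo1*, with at most 50 counts in a library, had standard errors of 0.929, 0.674, and 0.689.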
